A study of Mus musculus with 6 samples.

Results

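Wild-type leukocytes at day 13 of experimental autoimmune encephalomyelitis (EAE), the onset of the disease, were compared with wild-type leukocytes at day 0 in single-cell RNA sequencing of the mouse brain. The cells were chosen by label and by quality: every barcode of both wild-type libraries in which 200 genes or more were detected and no more than 10% of the UMIs (counted molecules) were mitochondrial. These were 5845 of the 20030 barcodes in the 6 libraries of the series, 3634 from the day 13 library and 2211 from the day 0 library. The day 13 group was C57BL/6 wild-type mice 13 days after EAE induction, and the day 0 group was C57BL/6 wild-type mice listed at 0 days after induction. A pair of miR-155KO libraries from the same days, from C57BL/6 mice lacking the microRNA miR-155, held 4777 kept barcodes, and their values are given beside the wild-type ones. Each group is given as n = 5 mice and appears as 1 library. The sources used here do not say whether the mice of a group were pooled. The cells were live CD45+ cells, that is leukocytes, sorted after mechanical dissociation on ice and a Percoll gradient. The tissue is labelled brain, although the extraction protocol names spinal cord as well.

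EAE is induced by immunizing mice so that T cells attack myelin, and it is the standard mouse model of multiple sclerosis. Around onset, CD4+ T cells, monocytes and neutrophils leave the blood and enter the central nervous system, where macrophages and dendritic cells present antigen to the T cells again. Interferon-gamma from T and NK cells acts through promoter sites called GAS, whereas type I interferons act through sites called ISRE, and many target genes answer both.

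With 1 library on each day, no difference below has a replicate check, and no test between days was possible. Each level is the gene's UMIs summed over the cells of a class and scaled by all UMIs of that class in that library, in CPM. A gene counted as measured in a class when its mean CPM over both libraries was at least 20 and it had at least 20 UMIs in all. It was called higher or lower at day 13 when the log2 difference of CPM + 5 was at least 1 in size, that is 2-fold. The fold changes printed are plain ratios of CPM followed by their exact 95% interval, which covers counting error only. The libraries had a median of 4375 UMIs per cell at day 13 and 3236 at day 0, and a median mitochondrial share of 2.16% at day 13 and 0.821% at day 0. The sample titles carry a number prefix that differs between the days in both genotypes and whose meaning is not given, so the day and whatever the prefix stands for cannot be told apart. The wild-type libraries shared 5 barcodes. Cells were gated into classes by marker genes such as Cd3e and Trac for T cells, Cd79a and Ms4a1 for B cells, Ly6g and Cxcr2 for neutrophils, Ccr2, Fn1, Vcan and Ace for monocyte-derived cells, and P2ry12 and Tmem119 for microglia. These genes are no results within their class, and every marker of these 5 classes was detected in its own class on both days. Barcodes that carried markers of more than 1 class were set aside as mixed.

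Monocyte-derived cells, T cells, B cells and dendritic cells took a larger share of all leukocytes at day 13, and NK cells and microglia, the macrophages that reside in the brain, a smaller one. Microglia were 24.7% of the kept barcodes at day 13 (897 cells, exact binomial 95% interval 23.3 to 26.1) and 60.1% at day 0 (1328 cells, 58.0 to 62.1). Monocyte-derived cells were 18.7% at day 13 (680 cells) and 4.98% at day 0 (110 cells), a ratio of 3.76 with a 95% interval of 3.10 to 4.57. T cells were 10.8% at day 13 (394 cells) and 6.15% at day 0 (136 cells), a ratio of 1.76 (1.46 to 2.13). B cells were 8.53% at day 13 (310 cells) and 5.52% at day 0 (122 cells), a ratio of 1.55 (1.26 to 1.89). Neutrophils were 8.50% at day 13 (309 cells) and 9.77% at day 0 (216 cells), and the interval of their ratio, 0.738 to 1.03, spans 1. Conventional dendritic cells (cDC) were 2.92% at day 13 (106 cells) and 0.95% at day 0 (21 cells), and plasmacytoid dendritic cells (pDC) were 2.23% at day 13 (81 cells) and 0.498% at day 0 (11 cells). NK cells were 0.908% at day 13 (33 cells) and 3.21% at day 0 (71 cells), a ratio of 0.283 (0.188 to 0.426). The remaining barcodes were myeloid progenitors (85 cells at day 13 and 20 at day 0), border-associated macrophages (8 and 7), mixed barcodes (628 and 128) and barcodes with no class (103 and 41).

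Shares of all leukocytes move together when microglia move, so they were also taken over the other barcodes, 2737 at day 13 and 883 at day 0. On that base monocyte-derived cells still had a larger share at day 13, 24.8% against 12.5% at day 0, with a ratio of 1.99 (1.65 to 2.40). T cells had nearly the same share, 14.4% at day 13 and 15.4% at day 0, and the interval of the ratio, 0.781 to 1.12, spans 1. This base includes the mixed barcodes, but T cells within them were not counted. The pair of T cell with microglia held 297 barcodes at day 13 and 44 at day 0, beside 394 and 136 gated T cells. B cells had a smaller share on that base, 11.3% at day 13 and 13.8% at day 0, with a ratio of 0.820 (0.674 to 0.997). Neutrophils were 11.3% of the non-microglial barcodes at day 13 and 24.5% at day 0, a ratio of 0.462 (0.395 to 0.540). The place of T cells, B cells and neutrophils relative to day 0 thus depended on the base chosen. In the miR-155KO pair the same ratios were 0.390 for neutrophils and 0.594 for T cells, while the share of microglia among all kept barcodes was 12.9% at day 13 and 71.4% at day 0.

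**Figure D1:**
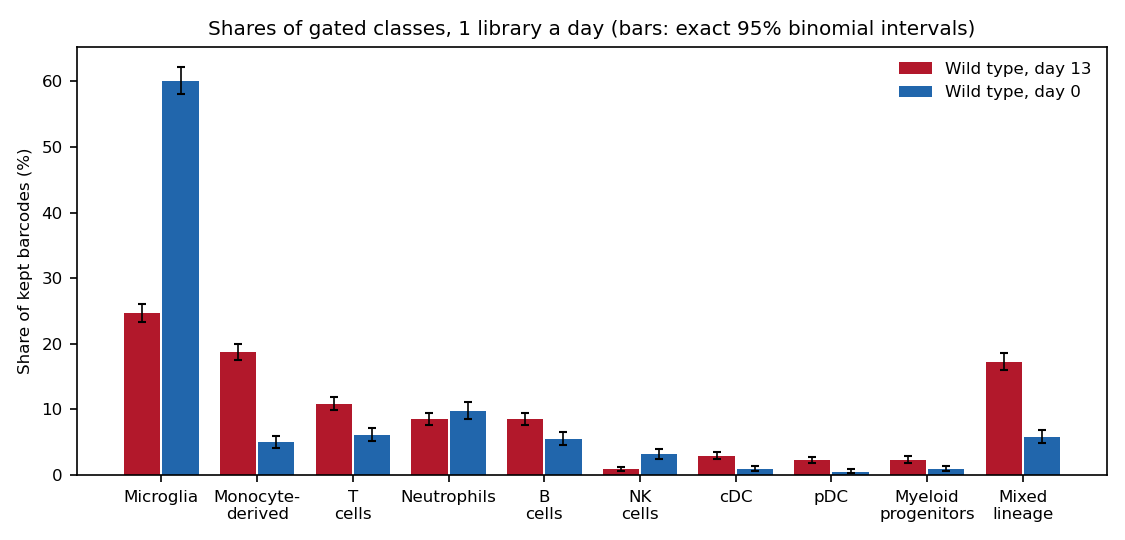
Share of kept barcodes (y axis, %) in each gated class (x axis) in wild-type day 13 and day 0, 1 library each, with exact 95% binomial intervals as error bars. The day 13 bar stands below the day 0 bar for microglia (24.7% and 60.1%) and NK cells (0.908% and 3.21%), and above it for monocyte-derived cells, T cells, B cells, both dendritic classes and mixed barcodes.

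Mixed barcodes were 17.3% at day 13 and 5.79% at day 0, a ratio of 2.98 (2.49 to 3.58). The commonest pair was T cell with microglia, 297 barcodes at day 13 (8.17% of the library) and 44 at day 0 (1.99%). Mixed barcodes had a median of 7221 UMIs at day 13 and 4952 at day 0, against medians of 3318.5 at day 13 and 3053 at day 0 for T cells. No doublet caller was run, and whether these barcodes are pairs of cells was not tested. They enter no class below.

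Interferon-gamma targets were higher in each of the 5 classes with enough cells for calls. Of 23 listed targets, those called higher at day 13 in T cells, B cells, neutrophils, monocyte-derived cells and microglia alike included 4 described here. They were the guanylate-binding proteins Gbp2 and Gbp7, the immunity-related GTPase Igtp, and Socs1, an inhibitor of JAK kinases that ends the signal. Igtp stood at 245 CPM at day 13 and 90.1 CPM at day 0 in T cells (2.71-fold higher, 1.98 to 3.80). In B cells it stood at 122 CPM at day 13 and 14.9 CPM at day 0 (8.17-fold higher, 3.38 to 25.7), and in neutrophils at 96.4 CPM at day 13 and 9.14 CPM at day 0 (10.5-fold higher, 4.99 to 26.7). Its day 13 level was thus higher in each of these classes. It stood at 220.0 CPM at day 13 and 33.3 CPM at day 0 in monocyte-derived cells and at 229.8 CPM at day 13 and 46.2 CPM at day 0 in microglia. Gbp2 had 280.1 and 5.96 CPM at day 13 and day 0 in B cells, 255 and 3.92 CPM in neutrophils and 1094 and 36.2 CPM in monocyte-derived cells. These 4 genes were also higher at day 13 in the miR-155KO pair in each class, from a log2 difference of 0.54 for Socs1 in T cells to 6.15 for Gbp2 in microglia. There Gbp2 was at 185 and 10.0 CPM at day 13 and day 0 in B cells and at 218 and 6.97 CPM in neutrophils.

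These 4 genes, and 2 type I interferon targets that are described with the neutrophils, were picked by their calls between days and not by the sites in their promoters. The type I targets were picked as called higher in neutrophils and not called higher in monocyte-derived cells. The promoters of all 6 genes are shown and were searched for the sites named above. They are the 250 bases before the start of each gene, read 5′ to 3′ on the gene's own strand from RefSeq sequence of build GRCm38.p6, and 6 of the 7 symbols looked up matched. Capitals mark the core of an ISRE, searched as GAAA, any 2 bases and GAAA again, or as the reverse complement with TTTC in place of GAAA, and a GAS, searched as TTCNNNGAA, which reads the same on both strands. No base was shared between an ISRE core and a GAS, and both ISRE cores of Socs1 overlap each other.
Gbp2 at chr3:142620413-142620662, plus strand: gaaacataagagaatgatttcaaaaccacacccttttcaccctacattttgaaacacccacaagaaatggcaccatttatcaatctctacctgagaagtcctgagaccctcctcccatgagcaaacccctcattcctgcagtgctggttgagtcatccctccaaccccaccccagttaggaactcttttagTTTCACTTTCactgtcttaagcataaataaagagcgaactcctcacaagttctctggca
Gbp7 at chr3:142530086-142530335, plus strand: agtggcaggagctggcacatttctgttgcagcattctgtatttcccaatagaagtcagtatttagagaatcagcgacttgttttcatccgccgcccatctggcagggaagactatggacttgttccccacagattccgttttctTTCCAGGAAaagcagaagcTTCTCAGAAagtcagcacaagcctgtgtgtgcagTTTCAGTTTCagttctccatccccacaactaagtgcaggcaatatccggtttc
Igtp at chr11:58199306-58199555, plus strand: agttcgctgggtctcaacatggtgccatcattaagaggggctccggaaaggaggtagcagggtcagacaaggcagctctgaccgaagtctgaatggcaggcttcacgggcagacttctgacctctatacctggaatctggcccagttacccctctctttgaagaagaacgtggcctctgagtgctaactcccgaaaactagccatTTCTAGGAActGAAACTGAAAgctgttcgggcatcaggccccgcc
Socs1 at chr16:10785537-10785786, minus strand: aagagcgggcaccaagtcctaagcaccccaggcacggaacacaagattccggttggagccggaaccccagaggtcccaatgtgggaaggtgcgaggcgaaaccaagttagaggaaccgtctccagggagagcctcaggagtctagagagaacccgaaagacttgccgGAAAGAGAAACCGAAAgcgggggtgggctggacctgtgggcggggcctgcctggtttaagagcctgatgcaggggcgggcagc
Ifit3 at chr19:34583279-34583528, plus strand: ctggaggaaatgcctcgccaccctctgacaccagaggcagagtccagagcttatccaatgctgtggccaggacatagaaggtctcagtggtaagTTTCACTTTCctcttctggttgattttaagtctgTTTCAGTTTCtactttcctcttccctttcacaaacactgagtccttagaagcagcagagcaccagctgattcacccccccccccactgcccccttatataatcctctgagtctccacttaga
Ifit1 at chr19:34640639-34640888, plus strand: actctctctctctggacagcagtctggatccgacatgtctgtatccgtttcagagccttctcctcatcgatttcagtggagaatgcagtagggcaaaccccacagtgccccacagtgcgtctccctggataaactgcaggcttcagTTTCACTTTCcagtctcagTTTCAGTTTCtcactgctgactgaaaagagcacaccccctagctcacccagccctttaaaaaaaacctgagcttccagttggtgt

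Each of the 6 promoters held an ISRE core, 1 copy in Gbp2, Gbp7 and Igtp and 2 copies in Socs1, Ifit3 and Ifit1. The copy nearest to the start lay 24 bases before it in Igtp, 43 in Gbp7, 49 in Gbp2, 67 in Socs1, 75 in Ifit1 and 112 in Ifit3. A GAS was present in Gbp7 (2 copies) and Igtp (1 copy), and these letters were not found in this window of the other 4. Across 27025 genes of the promoter table, 3.46% held an ISRE core and 8.13% a GAS in the same 250 bases. Of 15 interferon-gamma targets with an entry, 11 held an ISRE core and 8 a GAS, and of 19 type I interferon targets 11 held an ISRE core and 3 a GAS. None of 8 MHC class II genes and none of 8 naive T cell genes held an ISRE core, and 1 of 8 in each list held a GAS. Of 16 mature neutrophil genes 1 held an ISRE core and 1 a GAS. These last 3 lists are too short to be set apart from the shares over all genes. A match of letters describes the sequence and shows no binding.

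**Figure D2:**
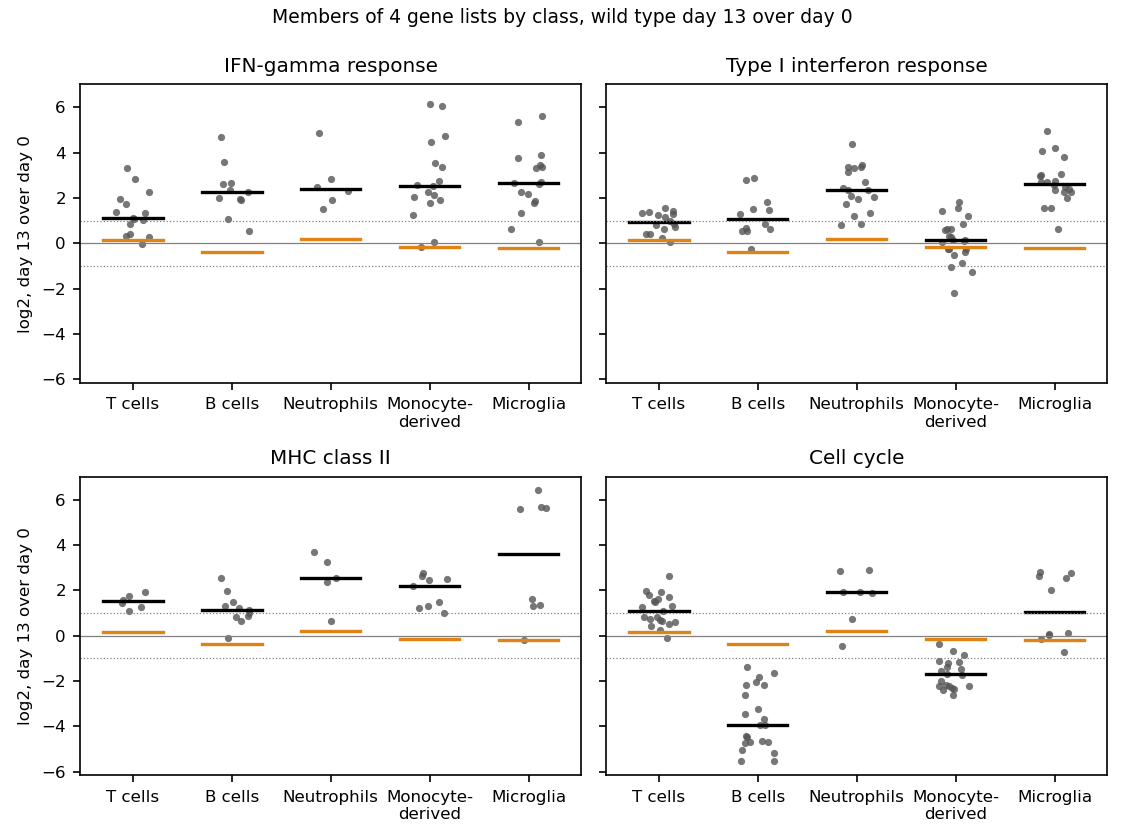
Difference between day 13 and day 0 (y axis, log2 of CPM + 5) for the measured genes of 4 lists in 5 classes (x axis), with each point 1 gene, the black line the median of the list and the orange line the median of all measured genes of the class. Interferon-gamma targets lie above 0 by their median in each class, type I interferon targets of monocyte-derived cells centre near 0 (median 0.15), and cell cycle medians lie below 0 in B cells and monocyte-derived cells and above it in the other 3 classes, of which microglia change sign after thinning to 1500 UMIs a cell (-0.061).

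T cells of day 13 carried more RNA of activation, effector and interferon genes and less of naive-cell genes than T cells of day 0. Over all genes, 426 of 5001 measured were called higher (8.52%) and 146 lower (2.92%). The median of all genes was 0.17 on the log2 scale, and with that shift removed by TMM scaling the calls were 259 higher and 257 lower, so the direction of single genes below is better read against a centre of 0.17 than against 0. The T cells of the libraries lay largely in different clusters. Clusters led by Cd4 with Cxcr6, by Tnfrsf4 with Foxp3 and by Gzmk with Cd8b1 held 163, 78 and 72 day 13 barcodes. At day 0 they held 7, 7 and 17 barcodes. A cluster led by Dapl1 and Lef1 held 61 day 13 and 95 day 0 barcodes. The clusters were made over all gates, and 50.6% of the one led by Tnfrsf4 with Foxp3 was gated as mixed.

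Naive and homing genes were lower. Of 11 listed genes all 11 were measured, and 6 were called lower and 0 higher, with a median of -1.24. Ccr7, the receptor that brings naive T cells into lymph nodes, was at 43.9 CPM at day 13 and 220.0 CPM at day 0 (5.02-fold lower, 3.71 to 6.80). Klf2, the transcription factor that keeps homing receptors such as S1pr1 expressed, was at 479 CPM at day 13 and 1393 CPM at day 0 (2.91-fold lower, 2.62 to 3.22). The RNA of a homing receptor and of a homing factor was thus lower in the day 13 cells. Dapl1, a marker RNA of naive and early memory CD8 T cells in mice, had 36 UMIs at day 13 and 157 at day 0, or 19.7 CPM at day 13 and 329 CPM at day 0 (16.7-fold lower, 11.5 to 24.7). Lef1, a partner of Tcf7 in early T cells, was at 115 CPM at day 13 and 329 CPM at day 0, while Tcf7 itself was at 115 CPM at day 13 and 216 CPM at day 0 and was not called. Il7r, the receptor for the survival cytokine IL-7, differed least, with 276 CPM at day 13 and 235 CPM at day 0. In the miR-155KO pair 7 of the 11 were called lower, with a median of -1.57.

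Activation and checkpoint genes were higher. Of 15 measured of 18 listed, 9 were called higher and 0 lower, with a median of 1.24. Il2ra, the high-affinity subunit of the IL-2 receptor, had 92 UMIs in 57 of 394 cells at day 13 and 0 in 136 cells at day 0, at least 8.02-fold higher against a floor of 3 UMIs. Icos, a costimulatory receptor of activated T cells, was at 212 CPM at day 13 and 48.2 CPM at day 0 (4.39-fold higher, 2.88 to 7.01). Tnfrsf4, which encodes the costimulatory receptor OX40, was at 273 CPM at day 13 and 41.9 CPM at day 0 (6.52-fold higher, 4.17 to 10.8). Costimulatory receptors of the TNF receptor family thus stood high at day 13, Tnfrsf9 (4-1BB) with 128 and 25.1 CPM and Tnfrsf18 (GITR) with 304 and 126 CPM at day 13 and day 0. The inhibitory receptors were higher as well, Pdcd1 (PD-1) at 97.6 CPM at day 13 and 21.0 CPM at day 0 (4.66-fold higher, 2.47 to 9.88) and Ctla4 at 72.4 CPM at day 13 and 16.8 CPM at day 0 (4.32-fold higher, 2.13 to 10.2). Pdcd1 did not differ in this way in the miR-155KO pair, where it was at 37.4 and 35.3 CPM at day 13 and day 0. Cd44 and Cd69, further activation markers, were not called, at 105 and 71.2 CPM and 117 and 145 CPM at day 13 and day 0.

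**Figure D3:**
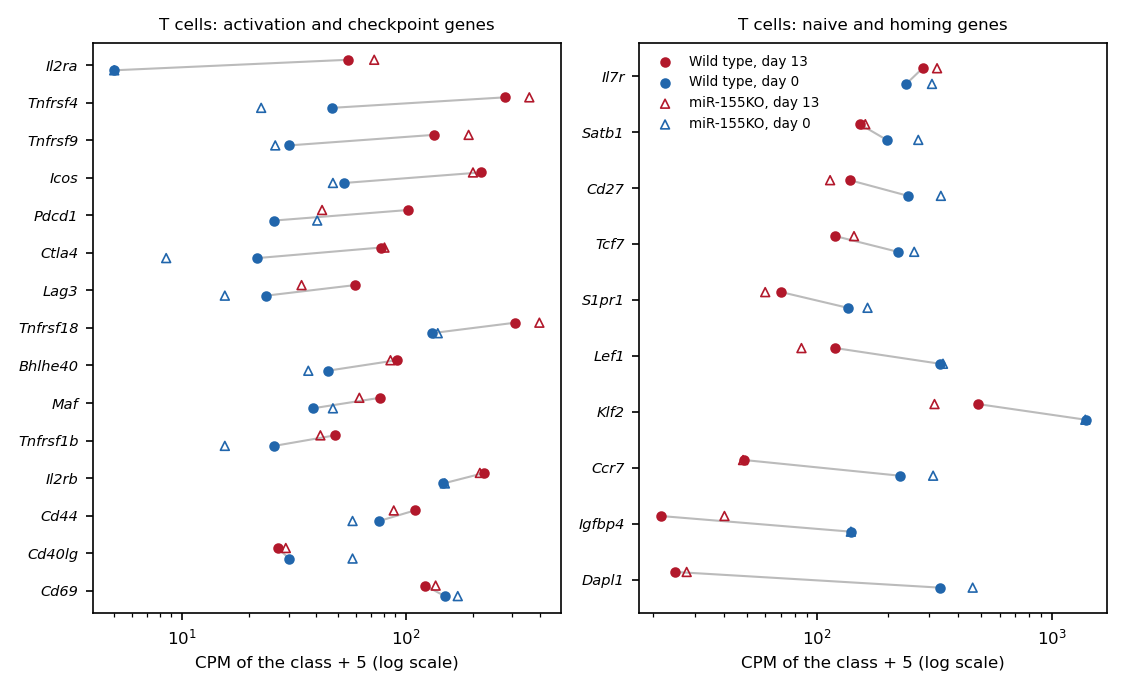
Level of each gene in T cells (x axis, CPM + 5, log scale) for the reported activation and checkpoint genes (left) and naive and homing genes (right), with filled circles for wild type and open triangles for miR-155KO, red for day 13 and blue for day 0, 1 library each. Tnfrsf4, Icos and Pdcd1 stand higher at day 13 in wild type, Dapl1 and Ccr7 stand lower, and the red and blue triangles of Pdcd1 nearly coincide.

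Effector genes of helper and cytotoxic T cells followed in part. Of 8 measured of 17 listed Th1 and Th17 genes, 4 were called higher. Cxcr6, a chemokine receptor of tissue T cells, was at 644 CPM at day 13 and 318 CPM at day 0 (2.02-fold higher, 1.71 to 2.41). Rora, a transcription factor of Th17 cells, was at 145 CPM at day 13 and 39.8 CPM at day 0. The other 2 were the subunits of the IL-18 receptor, Il18r1 (109 and 44.0 CPM at day 13 and day 0) and Il18rap. Ifng itself was at 42.8 CPM at day 13 and 39.8 CPM at day 0. Tbx21, the Th1 master regulator, was at 26.3 CPM at day 13 and 39.8 CPM at day 0, and neither was called. In the miR-155KO pair 0 of these genes were called higher, with a median of -0.16; the difference between the pairs was not tested. Of 12 measured of 15 listed cytotoxic genes, 4 were called higher. Gzmb, the granule protease granzyme B, was at 611 CPM at day 13 and 50.3 CPM at day 0 (12.2-fold higher, 8.13 to 19.1), in 120 of 394 cells at day 13 and 8 of 136 at day 0. In B cells, which do not make it, Gzmb had UMIs in 3 of 310 cells at day 13 and 0 of 122 at day 0. Gzma was at 871 CPM at day 13 and 58.7 CPM at day 0, but 1 cell held 472 of its 1589 day 13 UMIs. Klrg1, an inhibitory receptor of effector cells, was at 95.9 CPM at day 13 and 8.38 CPM at day 0. The chemokine Ccl5, at 6192 and 3914 CPM, and the activating receptor Klrk1, at 87.2 and 178 CPM at day 13 and day 0, were not called. The cytotoxic list had a median of 0.64 in wild type. In the miR-155KO pair 4 of its 12 genes were called higher and 3 lower, with a median of -0.16, and the difference was not tested. Of 8 measured of 13 listed regulatory T cell genes 6 were called higher, and Foxp3, which defines these cells, had UMIs in 28 of 394 cells at day 13 and 2 of 136 at day 0.

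The named genes of the T cells held further members of no list. Ly6a, which encodes the interferon-inducible surface protein Sca-1, was at 1598 CPM at day 13 and 205 CPM at day 0 (7.78-fold higher, 6.36 to 9.62) and had UMIs in 343 of 394 cells at day 13 and 40 of 136 at day 0. AA467197, the mouse transcript also known as Nmes1, was at 196 CPM at day 13 and 8.38 CPM at day 0 (23.4-fold higher, 9.07 to 86.4). Fabp5, a fatty acid carrier, was at 82.2 CPM at day 13 and 4.19 CPM at day 0. Ltb4r1, the leukotriene B4 receptor, was at 101 CPM at day 13 and 8.38 CPM at day 0. Igfbp7 had 77 UMIs in 17 cells at day 13 and 0 at day 0, at least 6.72-fold higher. Ccl8, with 115 UMIs at day 13 and 0 at day 0, rested on 3 cells, of which 1 held 91. Among the lowest, Trdc, the constant region of the delta chain of the gamma-delta T cell receptor, was at 43.3 CPM at day 13 and 237 CPM at day 0 (5.47-fold lower, 4.06 to 7.38), in 10 cells at day 13 and 11 at day 0. Ppp1r15a, a stress-response phosphatase subunit, was at 34.0 CPM at day 13 and 201 CPM at day 0 (5.92-fold lower, 4.26 to 8.28). Igfbp4 was at 16.4 CPM at day 13 and 134 CPM at day 0. Tdrp was at 2.19 CPM at day 13 and 48.2 CPM at day 0.

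Interferon, proliferation and metabolism genes were higher in T cells too. Of 15 measured of 23 listed interferon-gamma targets 10 were called higher and 0 lower (median 1.11), beside 8.52% of all measured genes, led by Iigp1, an immunity-related GTPase, with 76.8 CPM at day 13 and 6.29 CPM at day 0. Of 16 measured of 25 listed type I interferon targets 8 were called higher, among them Irf7, the factor that amplifies type I interferon, at 161 CPM at day 13 and 58.7 CPM at day 0. Cell cycle genes were called higher in 11 of 21 measured, with Mki67, the proliferation marker Ki-67, at 62.5 CPM at day 13 and 23.05 CPM at day 0, in 46 of 394 cells at day 13 and 3 of 136 at day 0. Glycolysis genes were called higher in 9 of 15, such as Gapdh at 2087 CPM at day 13 and 547 CPM at day 0. Ldha, which makes lactate, was at 1155 CPM at day 13 and 444 CPM at day 0. Hif1a, the hypoxia factor, was at 146 CPM at day 13 and 54.5 CPM at day 0. Immediate early genes went the other way, 5 of 14 lower and 0 higher, with Fos at 58.1 CPM at day 13, against 344 CPM at day 0. These genes also respond to handling of cells, and the part of handling was not tested. Ribosomal protein genes took 27.9% of the T cell UMIs at day 13 and 38.4% at day 0.

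The T cells were also split by detection of Cd8 and Cd4 RNA, a choice made after seeing the data. Cells with Cd8a or Cd8b1 UMIs and none of Cd4 were 125 (31.7%) at day 13 and 69 (50.7%) at day 0, and cells with Cd4 UMIs and none of Cd8a or Cd8b1 128 (32.5%) at day 13 and 18 (13.2%) at day 0. Within the Cd8 cells the naive genes were called lower in 9 of 11 measured and the cytotoxic genes higher in 6 of 13, over a background of 645 genes called higher and 191 lower of 4775. Gzmb was at 1328 CPM at day 13 and 33.8 CPM at day 0 in the Cd8 cells (39.3-fold higher, 20.6 to 86.1). Ly6a was at 1099.9 CPM at day 13 and 78.9 CPM at day 0 (13.9-fold higher, 9.05 to 22.6). Pdcd1 had 124 UMIs at day 13 and 1 at day 0 in the Cd8 cells (ratio 46.2, interval 8.15 to 1840.5). The ratios of Gzmb and Ly6a were thus larger within the Cd8 cells than in the whole class. Within the Cd4 cells, of which day 0 had 18, Cxcr6 was at 825 CPM at day 13 and 113 CPM at day 0. There the naive genes were called lower in 4 of 9 and the cytotoxic genes higher in 8 of 10, over a background of 871 genes called higher and 235 lower of 3814. Higher levels of the regulatory T cell list were not confined to the Cd4 cells. It was called higher in 5 of 6 measured in the Cd8 cells (median 2.45). In the Cd4 cells it was called higher in 5 of 9 and lower in 1 (median 1.06).

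Genes of other lineages were also found in the T cells at day 13. Class II genes, a mark of antigen-presenting cells rather than of mouse T cells, were called higher in 6 of 6 measured. Cd74, the invariant chain that accompanies class II, had 4977 UMIs at day 13 and 386 at day 0, in 193 of 394 cells at day 13 and 12 of 136 at day 0, and 1 cell of each library held 401 of the day 13 and 294 of the day 0 UMIs. Over the same T cells the 10 monocyte markers summed to 1111 CPM at day 13 and 287 CPM at day 0, with 8 detected at day 13 and 5 at day 0. The 8 microglia markers summed to 357 CPM at day 13 and 356 CPM at day 0, and the 6 B cell markers to 24.1 CPM at day 13 and 41.9 CPM at day 0. Saa3, a macrophage acute-phase gene, had 777 UMIs at day 13 and 0 at day 0, of which 1 cell held 230, and Lyz2, the myeloid lysozyme, was at 1639 CPM at day 13 and 479.8 CPM at day 0. The part of myeloid RNA in the class II and interferon counts of the T cells was not tested.

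B cells of day 13 differed from those of day 0 in 2 ways: genes of B cell precursors, and in the gated class those of the cell cycle, were lower, and interferon targets and class II genes were higher. Of 4894 measured genes 176 were called higher (3.6%) and 794 lower (16.2%). The median of all genes was -0.37, and TMM scaling turned the split into 388 higher and 398 lower, so every decrease below includes this shared shift of all genes. Ribosomal protein RNA made up 36.7% of the B cell UMIs at day 13 and 24.3% at day 0, and its part in the shift was not tested. The cells lay largely in different clusters, a cluster led by Ighd and Ms4a1 with 323 day 13 and 49 day 0 barcodes, and a cluster led by Vpreb3 and Ebf1 with 0 day 13 and 68 day 0 barcodes.

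All 9 measured precursor genes of 15 listed were called lower, Vpreb3 among them being a gate marker, with a median of -3.66. Sox4, a transcription factor of developing B cells, had 1 UMI at day 13 and 213 at day 0, or 1.23 CPM at day 13 and 635 CPM at day 0 (517-fold lower, 91.7 to 20495), and its UMIs came from 1 of 310 cells at day 13 and 56 of 122 at day 0. Vpreb1, the surrogate light chain of pre-B cells, had 0 UMIs at day 13 and 42 at day 0, in 6 day 0 cells. Igll1, its partner, had 0 UMIs at day 13 and 27 at day 0, in 2 day 0 cells. The pre-B cell receptor genes were thus seen in a handful of day 0 cells only, while Sox4 was spread over many. Ebf1, the factor that commits cells to the B lineage, was at 839 CPM at day 13 and 2782 CPM at day 0 (3.32-fold lower, 3.001 to 3.67). Cd24a, the heat-stable antigen, was at 287 CPM at day 13 and 1606 CPM at day 0 (5.59-fold lower, 4.78 to 6.54). The miR-155KO pair had the same direction for all 9, with a median of -2.96 and Sox4 at 2.35 and 230.1 CPM at day 13 and day 0.

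Cell cycle genes of the B cells were called lower in all 22 of 22 measured, with a median of -3.96. Top2a, the topoisomerase of dividing cells, had 2 UMIs at day 13 and 116 at day 0, in 2 of 310 cells at day 13 and 11 of 122 at day 0. Mki67 had 0 UMIs at day 13 and 40 at day 0, in 9 day 0 cells. Stmn1, a microtubule regulator of dividing cells, was at 9.83 CPM at day 13 and 682 CPM at day 0, in 8 of 310 cells at day 13 and 27 of 122 at day 0. The day 0 UMIs of Top2a and Mki67 thus came from few cells. When B cells were taken from clusters in place of gates, the median of the list was -1.06, and Top2a had a log2 difference of -0.22. Of the gated B cells of both days, 422 lay in clusters named as B cells and 10 in clusters named as progenitors. The miR-155KO pair did not show the same, with 1 gene called higher, 4 lower and a median of 0.30. Top2a was there at 16.4 and 10.0 CPM at day 13 and day 0, and the difference between the pairs was not tested.

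Interferon-gamma targets of the B cells were called higher in 10 of 11 measured genes of 23 listed, with a median of 2.27. Gbp2 had 228 UMIs at day 13 and 2 at day 0 (47.0-fold higher, 12.9 to 391). Ciita, the transcription factor that switches class II genes on, was at 108 CPM at day 13 and 23.8 CPM at day 0. Class II genes were called higher in 6 of 11 measured. H2-Aa, the alpha chain of the class II molecule I-A, was at 5516 CPM at day 13 and 2478 CPM at day 0 (2.23-fold higher, 2.07 to 2.40). H2-Oa, a brake on peptide loading that B cells express, was at 627 CPM at day 13 and 104 CPM at day 0 (6.01-fold higher, 4.26 to 8.72). Cd74 was already abundant at day 0, with 22556 CPM at day 13 and 14242 CPM at day 0, and its 1.58-fold difference was under the threshold. In the miR-155KO pair 2 class II genes were called higher, and Ciita was at 91.6 and 100.04 CPM at day 13 and day 0. Of 12 type I interferon targets measured in B cells 6 were called higher, Zbp1, a sensor of nucleic acids, at 186 CPM at day 13 and 20.9 CPM at day 0.

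Among the highest genes of the B cells, Serpina3g, an intracellular protease inhibitor, was at 500.0 CPM at day 13 and 20.9 CPM at day 0 (24.0-fold higher, 11.5 to 60.02). Ly6a was at 1795 CPM at day 13 and 164 CPM at day 0 (10.95-fold higher, 8.37 to 14.6). Ffar2, a receptor for short-chain fatty acids, had 64 UMIs at day 13 and 0 at day 0, at least 8.80-fold higher, and Ccr6, a chemokine receptor of mature B cells, 42 UMIs at day 13 and 0 at day 0, at least 5.77-fold higher; Ccr6 was at 46.2 and 40.0 CPM at day 13 and day 0 in the miR-155KO pair. Mature B cell genes were mostly level, 3 called higher and 1 lower of 16 measured. Ltb, a cytokine that organizes lymphoid tissue, was at 1249 CPM at day 13 and 492 CPM at day 0. Cxcr5, the follicle homing receptor, was at 128 CPM at day 13 and 41.7 CPM at day 0. Cd83 was at 243 CPM at day 13 and 50.6 CPM at day 0. Fcer2a, the low-affinity IgE receptor, was lower, at 41.8 CPM at day 13 and 169.8 CPM at day 0. The immunoglobulin heavy chain genes Ighm and Ighd were not called, at 5260.4 and 6259 CPM and 425 and 292 CPM at day 13 and day 0.

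When only B cells with an Ighd UMI were kept, 172 at day 13 (55.5%) and 52 at day 0 (42.6%), a choice made after seeing the data, interferon-gamma targets were called higher in 9 of 11 measured, against 161 higher and 325 lower of 3097 genes overall. Gbp2 was then 14.7-fold higher (3.96 to 123) and Ly6a 13.2-fold higher (8.30 to 22.4). Class II genes were called higher in 3 of 11, and Ebf1 was at 904 CPM at day 13 and 2232 CPM at day 0. The interferon differences were thus present among IgD-expressing cells, whereas fewer class II genes passed. The monocyte markers summed to 1955 CPM in the B cells of day 13 and 858 CPM at day 0, of which Plac8 made up 1935 and 843 CPM at day 13 and day 0, and their part in these results was not tested.

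**Figure D4:**
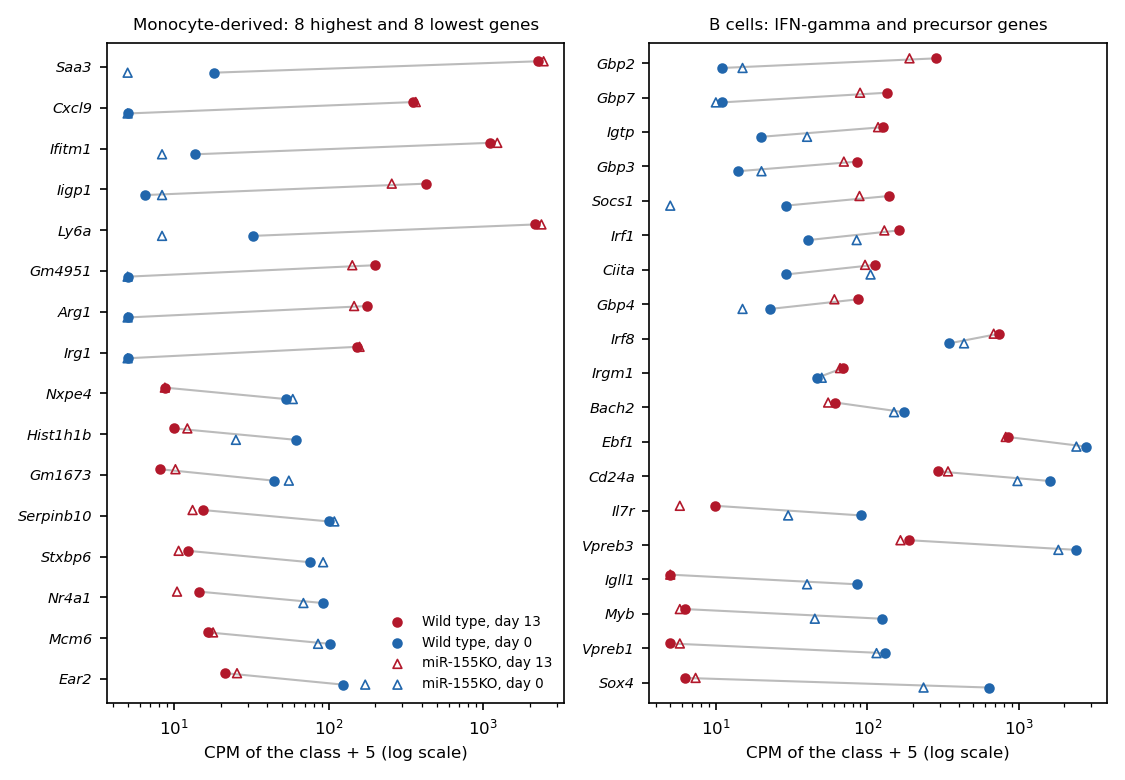
Level of each gene (x axis, CPM + 5, log scale) for the 8 highest and 8 lowest named genes of monocyte-derived cells (left) and for reported interferon-gamma targets and precursor genes of B cells (right), with filled circles for wild type and open triangles for miR-155KO, red for day 13 and blue for day 0, 1 library each. Saa3, Cxcl9 and Ly6a of monocyte-derived cells and Gbp2 of B cells stand higher at day 13 in both genotypes, and Sox4 and Vpreb1 of B cells stand lower.

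Neutrophils of day 13 carried more RNA of type I and interferon-gamma targets, of class I presentation and of several genes of mature neutrophils than those of day 0. Of 3087 measured genes 336 were called higher (10.9%) and 89 lower (2.88%), with a median of 0.21; with TMM scaling the calls were 230 higher and 164 lower. A cluster led by Ltf and Camp held 158 day 13 and 141 day 0 barcodes, while the other neutrophils lay apart, 203 day 13 and 0 day 0 barcodes in a cluster led by Gm5483 and Stfa2, and 4 day 13 and 96 day 0 barcodes in one led by Retnlg, Mmp9 and G0s2.

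Type I interferon targets were called higher in 16 of 18 measured of 25 listed and lower in 0, with a median of 2.37. Ifit3, an RNA-binding antiviral protein, had 185 UMIs at day 13 and 1 at day 0, or 126 CPM at day 13 and 1.31 CPM at day 0 (ratio 96.2, interval 17.1 to 3819). Ifit1, its relative, was at 196 CPM at day 13 and 14.4 CPM at day 0 (13.7-fold higher, 7.52 to 27.7). Irf7 was at 259 CPM at day 13 and 20.9 CPM at day 0 (12.4-fold higher, 7.55 to 21.9). Both Ifit genes, whose promoters with ISRE cores are shown above, thus had few UMIs at day 0. Isg15, a ubiquitin-like modifier, was at 474 CPM at day 13 and 82.3 CPM at day 0 (5.76-fold higher, 4.45 to 7.58) and had UMIs in 186 of 309 cells at day 13 and 33 of 216 at day 0. Oasl2, an antiviral protein, was at 257 CPM at day 13 and 20.9 CPM at day 0, and Oasl1 had 73 UMIs at day 13 and 0 at day 0, at least 12.7-fold higher. Oas3 and Cmpk2 were not called. In the miR-155KO pair 17 of these genes were called higher.

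All 6 measured interferon-gamma targets of 23 listed were called higher in neutrophils, Gbp2 at 255 CPM at day 13 and 3.92 CPM at day 0 (65.0-fold higher, 22.1 to 317) and Socs1 at 44.8 CPM at day 13 and 3.92 CPM at day 0. MHC class I and peptide loading genes were called higher in 14 of 16. The class I heavy chain H2-K1 was at 996 CPM at day 13 and 204 CPM at day 0 (4.89-fold higher, 4.14 to 5.80). B2m, its light chain, was at 3275 CPM at day 13 and 1239 CPM at day 0. Tap1, a subunit of the peptide transporter, was at 120.2 CPM at day 13 and 23.5 CPM at day 0. H2-Q7, a non-classical class I gene with near-identical neighbours among which reads may be split, was at 181 CPM at day 13 and 7.83 CPM at day 0. The list as a whole was therefore higher in its chains and in its transporter.

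Genes of mature neutrophils were called higher in 9 of 21 and lower in 0, with a median of 0.71. Wfdc17, a secreted protein of activated myeloid cells, had 5723 UMIs at day 13 and 9 at day 0, in 178 of 309 cells at day 13 and 4 of 216 at day 0, or 3885 CPM at day 13 and 11.8 CPM at day 0 (331-fold higher, 174 to 723). Ifitm1, an interferon-induced membrane protein, was at 4285 CPM at day 13 and 40.5 CPM at day 0 (106-fold higher, 74.5 to 156). The stefin A genes, which encode cysteine protease inhibitors, were at 1587 and 11.8 CPM for BC100530, 611 and 2.61 CPM for Stfa2 and 2515 and 153 CPM for Gm5483 at day 13 and day 0. They are close copies of each other and their separate values are uncertain. Among them Stfa2l1 differed least, at 618 CPM at day 13 and 65.3 CPM at day 0, and Stfa1, at 1020.4 CPM at day 13 and 19.6 CPM at day 0, was at 474 and 160.2 CPM in the miR-155KO pair. Il1b, the inflammatory cytokine, was at 109 CPM at day 13 and 13.1 CPM at day 0, in 42 of 309 cells at day 13 and 7 of 216 at day 0. Il1r2, the decoy receptor that binds it, was at 583 CPM at day 13 and 81.0 CPM at day 0 (7.20-fold higher, 5.56 to 9.48). S100a8, a subunit of calprotectin and an abundant neutrophil RNA, was not called, at 149268 CPM at day 13 and 217194 CPM at day 0. Among granule genes Camp, the cathelicidin precursor, was at 18763 CPM at day 13, against 42438 CPM at day 0 (2.26-fold lower, 2.23 to 2.30), while Ltf (lactoferrin) and Ngp were not called, at 8831 and 10251 CPM and 42982 and 41382 CPM at day 13 and day 0, and Chil3 was at 11295 CPM at day 13 and 4026 CPM at day 0 (2.81-fold higher, 2.70 to 2.92).

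**Figure D5:**
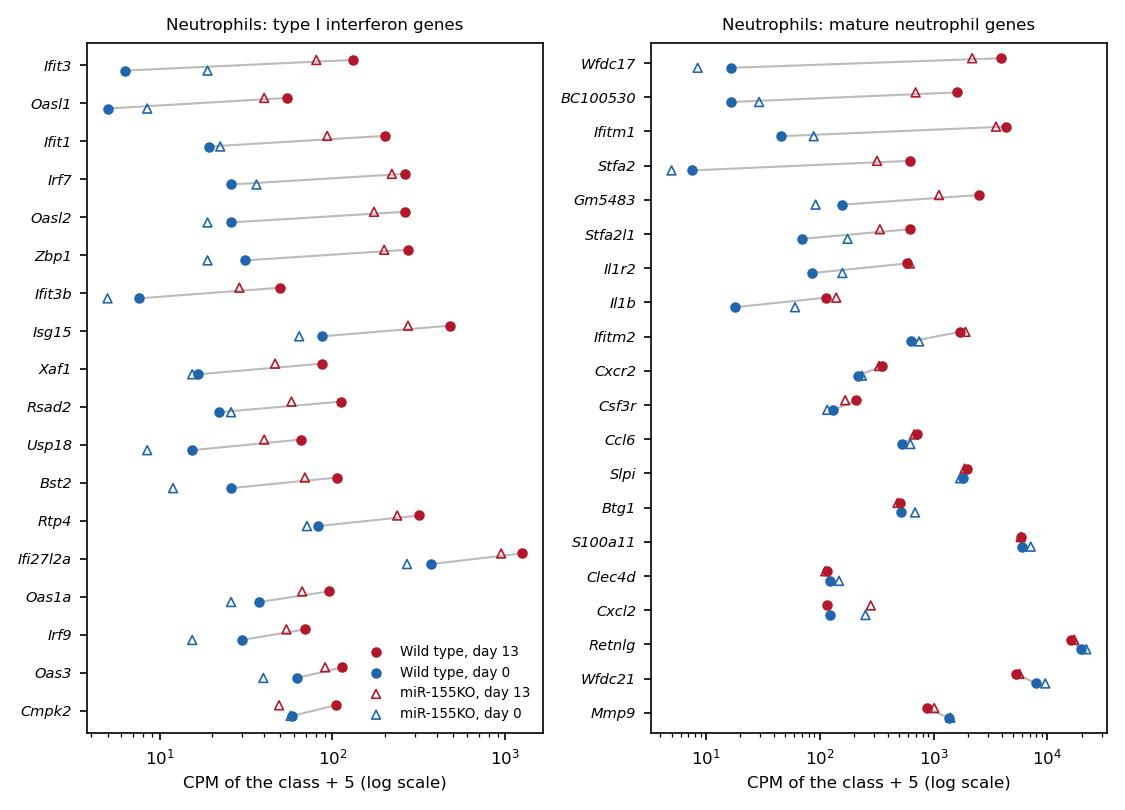
Level of each gene in neutrophils (x axis, CPM + 5, log scale) for the reported type I interferon targets (left) and mature neutrophil genes (right), with filled circles for wild type and open triangles for miR-155KO, red for day 13 and blue for day 0, 1 library each. Every type I interferon target shown stands further right at day 13 in wild type, though Oas3 and Cmpk2 by less than 2-fold, and Wfdc17, BC100530 and Ifitm1 show the widest gaps among the mature genes, whereas Retnlg and Mmp9, which are gate markers, stand slightly lower at day 13 in wild type.

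The lowest genes of the day 13 neutrophils included Thbs1, the matrix protein thrombospondin, at 23.8 CPM at day 13 and 142 CPM at day 0 (5.99-fold lower, 4.06 to 9.04). Stk39, a kinase of ion transport, was at 15.6 CPM at day 13 and 109.7 CPM at day 0 (7.02-fold lower, 4.39 to 11.7). G0s2, an inhibitor of fat breakdown, was at 202 CPM at day 13 and 619 CPM at day 0 (3.06-fold lower, 2.64 to 3.55). Cox17, a copper chaperone of mitochondria, was at 70.6 CPM at day 13 and 273 CPM at day 0. Cxcr4, the receptor that holds neutrophils in the bone marrow, was at 17.7 CPM at day 13 and 69.2 CPM at day 0 (3.92-fold lower, 2.41 to 6.53). Osm, an inflammatory cytokine, was at 70.6 CPM at day 13 and 171 CPM at day 0. The RNA of the retention receptor was thus lower in the cells sampled at day 13. Among the highest genes outside the lists, Cd38, an ectoenzyme, had 115 UMIs at day 13 and 0 at day 0, at least 19.9-fold higher, and Ly6a had 267 UMIs at day 13 and 1 at day 0.

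The neutrophils were also split by their share of UMIs from the granule genes Ltf, Camp and Ngp, at a limit set after seeing the data. Granule-rich cells were 165 (53.4%) at day 13 and 154 (71.3%) at day 0, granule-poor cells 144 (46.6%) at day 13 and 62 (28.7%) at day 0, and 79 day 13 and 49 day 0 cells lay near the limit. The type I interferon targets were called higher in 15 of 16 measured genes in the granule-rich and 16 of 19 in the granule-poor cells, against 308 of 2961 and 504 of 2468 genes overall. Wfdc17 was at 394 CPM at day 13 and 3.28 CPM at day 0 in granule-rich cells and at 10960.0 CPM at day 13 and 45.0 CPM at day 0 in granule-poor cells. Isg15 was at 324 CPM at day 13 and 68.8 CPM at day 0 in granule-rich cells and at 777 CPM at day 13 and 135 CPM at day 0 in granule-poor cells. Both genes were therefore higher at day 13 within each of these groups. Of 13 measured primary and secondary granule genes, 1 was called higher and 0 lower in granule-rich cells. In granule-poor cells 1 was called higher and 1 lower of 14. Camp, lower in the whole class, is among the genes that set the split. Cell cycle genes were called higher in 8 of 9 measured in granule-rich cells, whereas in granule-poor cells 0 of 3 were called higher and 1 lower. In the whole class Top2a was at 50.9 CPM at day 13 and 2.61 CPM at day 0, in 17 of 309 cells at day 13 and 1 of 216 at day 0.

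Myeloid RNA of other cells was found in the neutrophils as well. Cd74 had 588 UMIs at day 13 and 20 at day 0, 1 cell holding 194 of the day 13 UMIs, and Saa3 656 UMIs at day 13 and 0 at day 0, with 509 in 1 cell. The 10 monocyte markers summed to 1750 CPM at day 13 and 635 CPM at day 0, and the 8 microglia markers to 191 CPM at day 13 and 435 CPM at day 0. Their part in the neutrophil results was not tested.

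Monocyte-derived cells of day 13 carried more RNA of interferon-gamma targets, antigen presentation, chemokines and inflammatory macrophage genes than those of day 0. Of 4852 measured genes 287 were called higher (5.92%) and 319 lower (6.57%), with a median of -0.17; with TMM scaling the calls were 368 higher and 217 lower. Most day 13 cells lay in a cluster led by Arg1, Ly6i and Saa3 (620 day 13 and 1 day 0 barcodes). A cluster led by F13a1, Fn1 and Vcan held 66 day 13 and 75 day 0 barcodes, and one led by Ace and Nr4a1, genes of patrolling monocytes, 15 day 13 and 24 day 0 barcodes.

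Interferon-gamma targets were called higher in 15 of 17 measured of 23 listed, with a median of 2.55. Cxcl9, a chemokine that draws T cells through CXCR3 and depends on interferon-gamma, had 1588 UMIs at day 13 and 0 at day 0, at least 80.2-fold higher, in 236 of 680 day 13 cells. Iigp1 had 1927 UMIs at day 13 and 1 at day 0 (ratio 292, interval 52.3 to 11539), and Gbp2 was at 1094 CPM at day 13 and 36.2 CPM at day 0 (30.2-fold higher, 20.4 to 46.7). Irf8, the factor of monocyte and dendritic development, was not called, at 433 CPM at day 13 and 410.1 CPM at day 0. Type I interferon targets were mixed, 4 called higher and 3 lower of 23 measured, with a median of 0.15. Isg15 was at 570.3 CPM at day 13 and 209 CPM at day 0 (2.73-fold higher, 2.31 to 3.25) and Zbp1 at 467 CPM at day 13 and 155 CPM at day 0. Rsad2, the antiviral enzyme viperin, was lower, at 40.0 CPM at day 13 and 88.4 CPM at day 0, and Ifit3b at 7.03 CPM at day 13 and 50.7 CPM at day 0. Ifit3 and Ifit1, both steeply higher in neutrophils, were not called here, at 102 and 189.8 CPM and 108 and 86.9 CPM at day 13 and day 0. Both were picked for being called higher in neutrophils and not here, so this contrast was set by the choice. The day 0 monocytes already held more Ifit3 RNA than the day 0 neutrophils, 189.8 against 1.31 CPM. The difference between classes was not tested.

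Class II genes were called higher in all 9 of 9 measured. Cd74 was at 18718 CPM at day 13 and 4055 CPM at day 0 (4.62-fold higher, 4.45 to 4.80). H2-Aa was at 5557 CPM at day 13 and 1014 CPM at day 0 (5.48-fold higher, 5.08 to 5.91). Ciita was at 68.3 CPM at day 13 and 5.80 CPM at day 0 (11.8-fold higher, 4.56 to 43.5). The class II molecule, its chaperone and their regulator were thus higher together. Class I genes were called higher in 11 of 19, Tap1 3.10-fold. In these cells the 6 B cell markers summed to 11.6 CPM at day 13 and 10.1 CPM at day 0. The 9 cDC markers, of another cell type rich in class II RNA, summed to 529 CPM at day 13 and 336 CPM at day 0, and 30 of the gated monocyte-derived barcodes of both days lay in clusters named as cDC. The part of dendritic cell RNA in the class II result was not tested.

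Genes of macrophage polarization were called higher in 9 of 14 measured of 22 listed, Vcan among them being a gate marker. Saa3, an acute-phase serum amyloid, had 10376 UMIs at day 13 and 9 at day 0, the day 0 UMIs all in 1 cell, or 2278 CPM at day 13 and 13.0 CPM at day 0 (175-fold higher, 92.0 to 382). Arg1, the arginase of alternatively activated macrophages, had 785 UMIs in 95 of 680 cells at day 13 and 0 at day 0, at least 39.6-fold higher. Irg1, the itaconate-producing enzyme of classically activated macrophages, had 674 UMIs in 182 cells at day 13 and 0 at day 0, at least 34.0-fold higher. Marker enzymes of both macrophage states were therefore seen at day 13 and in none of the 110 day 0 cells. Chil3, a chitinase-like lectin, was at 9406 CPM at day 13 and 2497 CPM at day 0 (3.77-fold higher, 3.59 to 3.96). Il1rn, the IL-1 receptor antagonist, was at 103 CPM at day 13 and 15.9 CPM at day 0. Apoe was at 5704 CPM at day 13 and 2419 CPM at day 0. Arg1 was at 141 and 0 CPM and Irg1 at 154 and 0 CPM at day 13 and day 0 in the miR-155KO pair.

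Chemokine genes were called higher in 6 of 11 and lower in 1. Ccl5, a ligand of Ccr1, was at 2037 CPM at day 13 and 24.6 CPM at day 0 (82.7-fold higher, 51.6 to 142), in 418 of 680 cells at day 13 and 11 of 110 at day 0. In B cells Ccl5 had UMIs in 51 of 310 cells at day 13 and 5 of 122 at day 0. Cxcl16, the ligand of the receptor Cxcr6 that was higher in T cells, was at 271 CPM at day 13 and 4.35 CPM at day 0. Cxcl10, a further ligand of CXCR3, was at 529 CPM at day 13 and 152 CPM at day 0 (3.48-fold higher, 2.86 to 4.27), and Ccl3 went the other way, at 20.2 CPM at day 13 and 143 CPM at day 0 (7.10-fold lower, 5.29 to 9.54). Of the receptors, Ccr1 was at 269 CPM at day 13 and 65.2 CPM at day 0 (4.13-fold higher, 3.07 to 5.69). Cx3cr1, the fractalkine receptor of patrolling monocytes, was at 26.1 CPM at day 13 and 188 CPM at day 0 (7.21-fold lower, 5.58 to 9.32). Il1b was at 388 CPM at day 13 and 27.5 CPM at day 0 (14.1-fold higher, 9.002 to 23.5), in 289 of 680 cells at day 13 and 9 of 110 at day 0. Icam1, the adhesion ligand of LFA-1, was at 103 CPM at day 13 and 24.6 CPM at day 0.

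The monocyte-derived cells also carried more RNA for glycolysis, with 10 of 19 genes called higher, among them Slc2a1, the glucose transporter GLUT1, at 65.4 CPM at day 13 and 7.25 CPM at day 0. Mif was at 675 CPM at day 13 and 101 CPM at day 0 and Hif1a at 156 CPM at day 13 and 31.9 CPM at day 0. Cell cycle genes were called lower in 17 of 20. Pcna, the replication clamp, was at 19.5 CPM at day 13 and 117 CPM at day 0 and Mki67 at 19.8 CPM at day 13 and 59.4 CPM at day 0, in 49 of 680 cells at day 13 and 14 of 110 at day 0. In the miR-155KO pair 8 of the 20 were called lower and 3 higher, with a median of -0.64. Mki67 was there at 24.0 and 16.8 CPM at day 13 and day 0. Of the gated wild-type monocyte-derived barcodes of both days, 37 lay in clusters named as progenitors. A progenitor cluster led by 2810417H13Rik, Hist1h1b and Ccna2 held 31 day 13 and 41 day 0 barcodes, and 41.7% of it was gated as monocyte-derived. The part of progenitors in the cell cycle counts was not tested. Immediate early genes were called lower in 9 of 18. Fos was at 302 CPM at day 13, against 1510.0 CPM at day 0, and Nr4a1, which patrolling monocytes need, at 9.44 CPM at day 13, against 86.9 CPM at day 0. Ly6a was at 2169 CPM at day 13 and 27.5 CPM at day 0 (78.8-fold higher, 50.4 to 131), in 594 of 680 cells at day 13 and 9 of 110 at day 0. Ifitm1 was at 1097 CPM at day 13 and 8.69 CPM at day 0 (126-fold higher, 57.9 to 344). Ear2, an eosinophil-type ribonuclease of patrolling monocytes, was at 16.5 CPM at day 13 and 119 CPM at day 0 (7.22-fold lower, 5.21 to 10.0). Serpinb10, a protease inhibitor of bone marrow cells, was at 10.3 CPM at day 13 and 95.6 CPM at day 0.

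Subsets of the monocytes differed in share, with patrolling-type cells 22 of 680 (3.24%) at day 13 and 25 of 110 (22.7%) at day 0, and cycling cells 64 (9.41%) at day 13 and 18 (16.4%) at day 0. In the remaining classical cells, 595 at day 13 and 69 at day 0, interferon-gamma targets were called higher in 14 of 18 measured and class II genes in 8 of 8, against 314 higher and 311 lower of 4742 genes overall. Saa3 had 9146 UMIs at day 13 and 0 at day 0 in these classical cells, Cxcl9 1439 UMIs at day 13 and 0 at day 0, and Arg1 647 UMIs at day 13 and 0 at day 0. Ccl5 was there 63.8-fold higher (37.3 to 119.8), and H2-Aa 4.94-fold higher (4.51 to 5.42). These higher levels were thus present with patrolling and cycling cells left out, a choice made after seeing the data. Values of Cx3cr1, Nr4a1 and Ear2, lower in the whole class, are not given for these cells. Type I interferon targets were called higher in 2 and lower in 4 of 23 in these cells, Ifit3 at 107 CPM at day 13 and 308 CPM at day 0.

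The smaller classes had under 50 cells in at least 1 library and are given as values. In cDC, the antigen-presenting dendritic cells, with 106 cells at day 13 and 21 at day 0, Ccl5 was at 3548 CPM at day 13 and 157 CPM at day 0 (22.6-fold higher, 14.6 to 37.1). Ccl22, a chemokine of migratory dendritic cells, had 281 UMIs at day 13 and 0 at day 0 (at least 14.2-fold higher), Cxcl9 180 UMIs at day 13 and 0 at day 0 (at least 9.07-fold higher), and Ly6a 1288 UMIs at day 13 and 0 at day 0 (at least 64.9-fold higher). Ccr7, which here guides mature dendritic cells to lymph nodes, was at 763 CPM at day 13 and 180.4 CPM at day 0. Of the class II genes, Cd74 in cDC was at 26476 CPM at day 13 and 29693 CPM at day 0. In pDC, the main producers of type I interferon, with 81 cells at day 13 and 11 at day 0, Irf7 was at 706 CPM at day 13 and 222 CPM at day 0 (3.17-fold higher, 1.82 to 6.04) and Ly6a at 4097 CPM at day 13 and 342 CPM at day 0 (11.97-fold higher, 7.72 to 19.7).

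NK cells, 33 at day 13 and 71 at day 0, had similar levels of killing genes on both days, Gzma at 12902 CPM at day 13 and 15487 CPM at day 0 and Gzmb at 1219 CPM at day 13 and 1367 CPM at day 0. Xcl1, a chemokine that draws cross-presenting dendritic cells, was at 799 CPM at day 13 and 1995 CPM at day 0, a ratio of 0.401 with an interval of 0.318 to 0.500, and Ifng at 222 CPM at day 13 and 306 CPM at day 0. Ly6a was higher here too, at 182 CPM at day 13 and 15.8 CPM at day 0 (11.5-fold higher, 3.47 to 59.8), and Fos had 2 UMIs at day 13 and 76 at day 0. Myeloid progenitors, 85 cells at day 13 and 20 at day 0, had Ifitm1 at 357 CPM at day 13 and 115 CPM at day 0. Ly6a thus had a higher level at day 13 in all 9 classes described here. Among the 5 classes with more than 3 day 0 UMIs of it, the ratio was lowest in T cells (7.78) and highest in monocyte-derived cells (78.8).

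Microglia are given here for their place beside the infiltrating cells. Of 5518 measured genes 298 were called higher (5.4%) and 318 lower (5.76%), with a median of -0.21, and with TMM scaling the calls were 431 higher and 178 lower. Interferon-gamma targets were called higher in 15 of 17 and type I interferon targets in 19 of 20. Cd74 was at 12441 CPM at day 13 and 141 CPM at day 0 (88.4-fold higher, 81.8 to 95.8), so the day 13 microglia had a lower Cd74 level in CPM than the day 13 monocyte-derived cells and a higher one than the day 0 ones. Homeostatic genes were called lower in 11 of 18, and immediate early genes in 16 of 18. Fos was at 226 CPM at day 13, against 4867 CPM at day 0.

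The directions in wild type were set beside those in the miR-155KO libraries of the same days and title prefixes, which are a separate pair of libraries but no replicate. Of the genes called higher in wild type with at least 20 UMIs in the miR-155KO pair, 408 of 424 had the same sign in the miR-155KO pair in T cells, 140 of 175 in B cells, 305 of 319 in neutrophils and 281 of 286 in monocyte-derived cells. Of those called lower, the counts were 135 of 141 in T cells, 613 of 679 in B cells, 63 of 68 in neutrophils and 297 of 319 in monocyte-derived cells. At the 2-fold threshold the miR-155KO counts were smaller. Of the higher genes they were 288 of 424, 71 of 175, 206 of 319 and 232 of 286 in the same order of classes. Of the lower genes they were 83 of 141, 289 of 679, 32 of 68 and 180 of 319. The miR-155KO median over measured genes was 0.18, -0.33, 0.15 and -0.12 in that order. The share of all measured genes with each sign was not taken. The title prefix changes with the day in both pairs.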

How the data were processed

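The data were single-cell 3' RNA-seq count tables of sorted CD45+ cells, 1 library per group, and the 2 wild-type libraries of day 13 and day 0 were analysed with the miR-155KO pair beside them. Deposited values were whole-number UMI counts per gene (28692 genes) and barcode; per the submitters' processing notes they came from Cell Ranger 2.0.2 with build mm10. Barcodes with under 200 genes or over 10% mitochondrial UMIs were left out (6 at day 13 and 4 at day 0). The libraries held 20298806 UMIs at day 13 and 8566827 at day 0, and the class sums behind each level ranged over 814010 to 4554111 UMIs at day 13 and 335688 to 4549647 at day 0 for the 5 classes with calls.

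Barcodes were gated into 11 classes from marker genes: at least 2 markers of the class detected and a summed level of at least 0.2 of the class's yardstick, with barcodes at 0.1 or more of another class's yardstick set aside as mixed. A yardstick is the median level of a class's markers, over both wild-type libraries, in barcodes that detect at least 0.5 of them. No doublet caller was run. Clusters (scanpy 1.11.5, 2000 variable genes, 30 principal components, 15 neighbours, Leiden resolution 1 with leidenalg 0.10.2) served to describe the classes and as an alternative to the gates. UMIs were summed per class and library and divided by the class total (CPM), since cells of 1 library are not replicates. Ratios have exact conditional 95% intervals, and shares Clopper-Pearson ones; for ratios of shares the interval is log-normal, and each covers counting error only. A library at 0 UMIs was set to a floor of 3 UMIs and the fold given as a bound. Genes were called at a 2-fold difference with 5 CPM added. No test between days was possible with 1 library each.

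Genes named in the text were the 8 highest and 8 lowest of a class by the interval bound nearest to 1, leaving out gate markers, ribosomal, mitochondrial, hemoglobin, receptor variable-region and sex-linked genes and genes whose level in the class was under 0.25 of that in another class, together with up to 4 members of a list; further members and the genes of the subsets, small classes and admixture checks were chosen after their values were seen. The cells, gene lists and markers were chosen with earlier results of these data known, and the gate thresholds, cluster names and subsets were set with the data in hand. Alternatives were TMM (edgeR 4.0.16) and DESeq2 1.42.0 scaling, no low-count filter, a pseudocount of 1 CPM, means over cells, thinning to 1500 UMIs per cell, stricter gates, classes from clusters, a 5% mitochondrial limit and mixed barcodes left out. The computation used Python 3.11.15, numpy 2.4.6, scipy 1.17.1, pandas 2.3.3, matplotlib 3.10.9 and R 4.3.3, and was tested on simulated data. Values of a few genes are not reported here, although the counts over lists and over all genes include them.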

Additional observations from a re-analysis of the deposited data

Results flagged for a closer look

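The cell cycle list moved in opposite directions in different classes between day 13 and day 0 of wild type. Its median log2 difference was 1.10 in T cells, 1.92 in neutrophils and 1.06 in microglia, against -3.96 in B cells and -1.71 in monocyte-derived cells. The microglial median was -0.13 as a mean over cells and -0.061 after thinning, that of neutrophils was -0.98 in granule-poor cells and 0.62 in neutrophils taken from clusters, and that of B cells was -1.06 in B cells taken from clusters. With 1 library a day the difference between classes was not tested.

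In B cells the same list had a median of -3.96 in the wild-type pair and 0.30 in the miR-155KO pair. The wild-type value rests on few cells: Mki67 had UMIs in 0 of 310 cells at day 13 and 9 of 122 at day 0, and Top2a in 2 of 310 cells at day 13 and 11 of 122 at day 0. In B cells taken from clusters the median was -1.06, and the log2 difference was -0.22 for Top2a and 0 for Ccna2 and Cenpf. The difference between the pairs was not tested.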

How the results depend on the processing

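Of 1725 values under an alternative setting, 1618 were counted as the same, 100 as moved and 7 as changed in sign. A named gene was the same when it kept its sign and a log2 difference of at least 1 in size. Other values were the same when they stayed near the main one. For list medians a change of sign was counted only where the main median was at least 1 in size. Smaller medians that changed sign are among the other counts. The homeostatic microglia list in T cells, 0.41 in the main setting and -0.52 as a mean over cells, counted as moved. With TMM scaling and with DESeq2 size factors, the counts of genes higher at day 13 were 259 and 262 in T cells and 388 and 380 in B cells. The counts of lower genes were 257 and 242 in T cells, 398 and 405 in B cells, 164 under both scalings in neutrophils, and 178 and 175 in microglia. TMM scaling shifts every log2 value by -0.22 in T cells, 0.37 in B cells, -0.23 in neutrophils, 0.17 in monocyte-derived cells and 0.25 in microglia. Without the low-count filter more genes enter, and the higher and lower counts were 952 and 364 in T cells, 555 and 1683 in B cells, 715 and 250 in neutrophils, and 494 and 623 in monocyte-derived cells, with 495 higher in microglia. Thinning to 1500 UMIs a cell left 525 lower genes in B cells. With mixed barcodes left out, the ratio of the microglial share at day 13 over day 0 was 0.468.

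Of the changes of sign, the cause was not tested. The median of the chemokine list in T cells was -0.15 with stricter gates. Klra1, a killer-cell receptor gene at 4.93 CPM at day 13 and 58.7 CPM at day 0 in all T cells, had a log2 difference of 0.42 in Cd4 cells. Rrm2, a subunit of ribonucleotide reductase with 1 UMI at day 13 and 67 at day 0 in gated B cells, had 0.30 in B cells taken from clusters, where the cell cycle median was -1.06. Hist1h1b, a histone gene, kept its sign but moved, from -2.61 in gated monocyte-derived cells to -0.61 in those taken from clusters. The cell cycle median of neutrophils was -0.98 in granule-poor cells, over 3 measured genes. In microglia the cell cycle median was -0.13 as a mean over cells and -0.061 after thinning, and the glucocorticoid median was 0.033 without the low-count filter.

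No paired analysis was possible because each group has 1 library. For the same reason no library was left out in turn. What limits these comparisons is the single library per day, the title prefix that changes with the day, and the few cells in some arms, such as 18 Cd4 T cells and 11 pDC at day 0.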

Other observations

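Several clusters were made up mainly of mixed barcodes and were left unnamed. A cluster of 301 barcodes led by Lat, Cxcr6 and Cd3g held 298 from day 13 and 3 from day 0, and 92.4% of it was gated as mixed. A cluster of 57 barcodes led by Hes1, Xcl1, Gata3 and Csf2 came from day 0 alone, and 71.9% of it was mixed. A cluster led by Jchain, the joining chain of secreted antibodies, held 13 day 13 barcodes and 1 day 0 barcode, and one led by Prss34 and Mcpt8, proteases of basophils and mast cells, held 5 day 13 and 11 day 0 barcodes. The mixed barcodes among them are part of no comparison in the report.

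Erythroid markers were not seen at day 13 and seen at low level at day 0 in the 5 classes compared: the 6 markers summed to 0 UMIs at day 13 and 13 at day 0 in B cells, to 0 at day 13 and 10 at day 0 in monocyte-derived cells, to 0 at day 13 and 7 at day 0 in T cells, to 0 at day 13 and 4 at day 0 in neutrophils, and to 0 at day 13 and 1 at day 0 in microglia.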
